A study of Mus musculus with 6 samples.

Results

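Cluster 14 is the smallest and deepest of the 15 groups of nuclei in the deposited table of nuclei. Its members were taken as every nucleus carrying the cluster label 14, which gave 92 of 38154 nuclei (0.241%). The nuclei came from organoids grown from the jejunum of C57BL/6 mice aged 8 to 12 weeks. Organoids were kept in medium conditioned by quiescent mouse embryonic fibroblasts (QCM, the control) or by senescent ones (SCM), with 3 samples per medium and no other agent or allele named for either. Per the methods, the fibroblasts were made quiescent by serum withdrawal and senescent by X-rays or doxorubicin, and the labels do not say which was used for a given sample. The fibroblasts supplied medium only and were not in the cultures. Nothing in the labels says that the 3 samples of a medium were separate cultures, and p-values therefore measure only the spread between these samples.

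The jejunal epithelium is renewed from crypt base stem cells, which express Lgr5. Their progeny become absorptive enterocytes or secretory goblet, Paneth, enteroendocrine and tuft cells, each with its own marker genes, and a fetal-like programme that includes Clu can return after injury. In single-nucleus sequencing each captured RNA molecule is counted once as a unique molecular identifier (UMI), and a barcode stands for one droplet. Because a deep barcode shows more genes of every kind, markers of several lineages in one barcode have to be read against its depth.

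The 6 libraries were uneven. They held between 430 and 10833 nuclei and between 4071926 and 41035733 UMIs, and the smallest in both respects was SCM replicate 1. QCM replicate 3 contributed a single cluster 14 nucleus, so means over samples below use the other 5, each with 7 nuclei or more and each given equal weight. Across the libraries 330 barcodes occurred more than once, and 9 of the 92 cluster 14 nuclei (9.78%) had such a barcode against 1.73% of all nuclei, although none was shared between 2 cluster 14 nuclei. Epithelial markers were present, with Epcam in 100% and Cdh1 in 98.9% of the 92 nuclei, shares that rise with depth. The pan-epithelial list of 9 genes averaged 2362 UMIs per 1000000 UMIs (CPM) against 3018 in the other nuclei. It was lower in cluster 14 in 4 of 5 samples, and 8 of its 9 members had the lower mean. The fibroblast, immune, endothelial, smooth muscle and neural lists each summed to 11.5 CPM or less in every one of the 6 samples' cluster 14 nuclei. The fibroblast list averaged 3.74 CPM against 2.59 in the other nuclei, and 4 of its 9 members had no UMI in the cluster. The smooth muscle list averaged 8.33 CPM against 5.57, but was lower in cluster 14 in SCM replicate 1, at 7.63 against 10.5 CPM. Of its 5 members, Tagln, an actin-binding protein of smooth muscle, was higher in cluster 14 in 5 of 5 samples. It stood at 3.75 ± 1.83 against 1.23 ± 0.49 CPM, on 14 of the list's 39 UMIs, and the other members are not given here. The part of such cells in the results was not tested.

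The depth of cluster 14 set it apart in each of these 5 samples. The median was 83238 UMIs per nucleus in QCM replicate 1, where the other nuclei had 8214. It was 27249 in QCM replicate 2 against 2298, and the lone nucleus of QCM replicate 3 had 3334 against 1578. In SCM the medians were 138148, 31680 and 17545 UMIs for replicates 1, 2 and 3, against 2860, 2544 and 1965. The ratio of the medians was therefore 10.1, 11.9 and 2.11 in QCM and 48.3, 12.5 and 8.93 in SCM. On the log2 scale it averaged 3.86 ± 0.99 (SD, n = 5 samples). The clusters were built from the expression of these same nuclei, so these contrasts are given without a test.

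**Figure D1:**
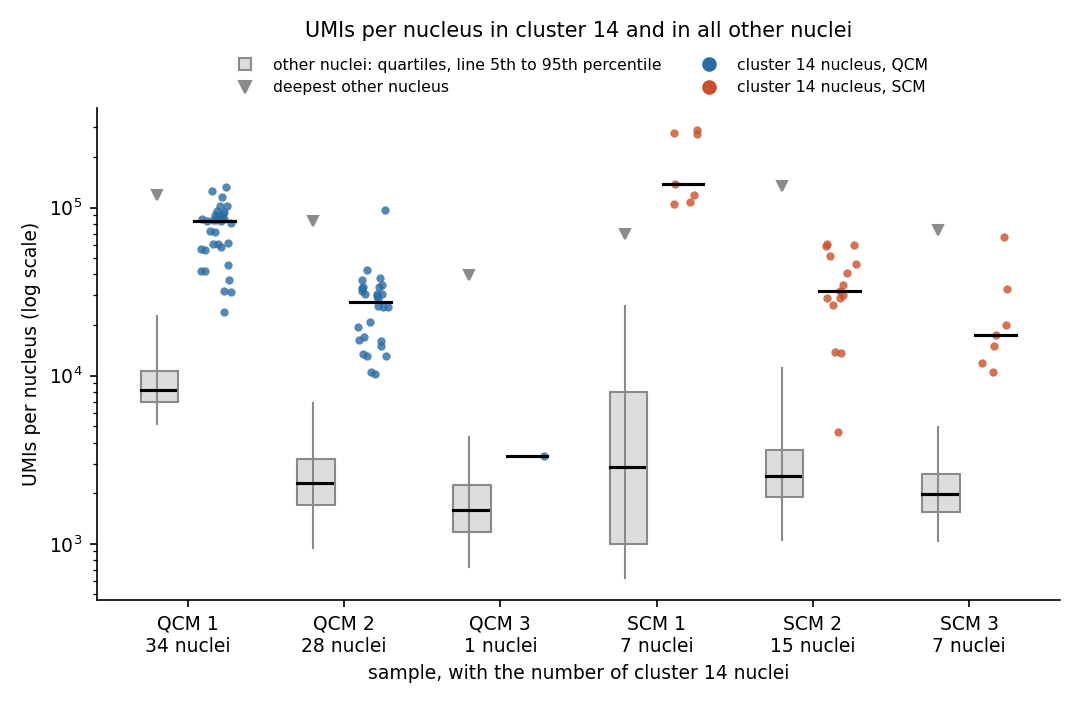
UMIs per nucleus on a log axis for the 6 samples. Grey boxes show the quartiles of all other nuclei, grey lines their 5th to 95th percentiles and triangles the deepest of them, coloured points show single cluster 14 nuclei (blue QCM, red SCM) and black lines medians. The 7 points of SCM replicate 1 lie between 105492 and 289467 UMIs, all above the deepest other nucleus of that sample at 69355.

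Depth was not uniform within the cluster. Members ranged from 3334 to 289467 UMIs, with a median of 10.9 times the median of their own sample. Of the 92, 84 were at 5 times their sample's median or more and 57 at 10 times or more. The remaining 8 were shallower, down to 1.82 times the median for a nucleus of SCM replicate 2 with 4633 UMIs. The label did not gather all deep barcodes either. Over all clusters 226 nuclei reached 10 times their sample's median, of which cluster 14 held 57 and cluster 7, the group with the highest level of fetal-like genes, held 66. Cluster 7 is a far larger group, with 1442 nuclei at a median of 1.06 times their sample's median, so most of its nuclei were not deep. The part of these nuclei that fell in cluster 14 differed between samples, from 81.8% in QCM replicate 1 and 44.7% in QCM replicate 2 to 36.8%, 13.6% and 7.14% in SCM replicates 1 to 3, and 0 of 17 in QCM replicate 3.

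Genes per nucleus followed depth. The median number of genes with a UMI was 11051.5, 7421 and 2209 in QCM replicates 1 to 3 and 12501, 7887 and 6098 in SCM replicates 1 to 3. Other nuclei had medians from 1086 to 3263 genes. The deepest nucleus, from SCM replicate 1, had UMIs from 14454 genes. When every nucleus was thinned to 1000 UMIs, cluster 14 gave a median of 836 genes against 786 for the 34883 other nuclei that had this many, with 3179 other nuclei left out as too shallow. In the 5 samples the thinned medians of cluster 14 lay between 828 and 847 and those of the other nuclei between 711 and 808, so that at equal depth each sample's cluster 14 nuclei still showed the higher number of genes.

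A small number of nuclei carried a large part of some libraries. Cluster 14 made up 0.897%, 0.353% and 0.00986% of the nuclei in QCM replicates 1 to 3 and 1.63%, 0.298% and 0.0646% in SCM replicates 1 to 3. The 95% Wilson intervals were widest in SCM replicate 1, from 0.791% to 3.32%, and they cover counting error only. Its part of the UMIs was 6.22%, 3.19% and 0.0167% in QCM and 32.2%, 2.56% and 0.650% in SCM. Thus 7 nuclei held 32.2% of the RNA counted in SCM replicate 1. They were the 7 deepest barcodes of that library, and the 3 deepest alone, with 839697 UMIs, held 20.6%.

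**Figure D2:**
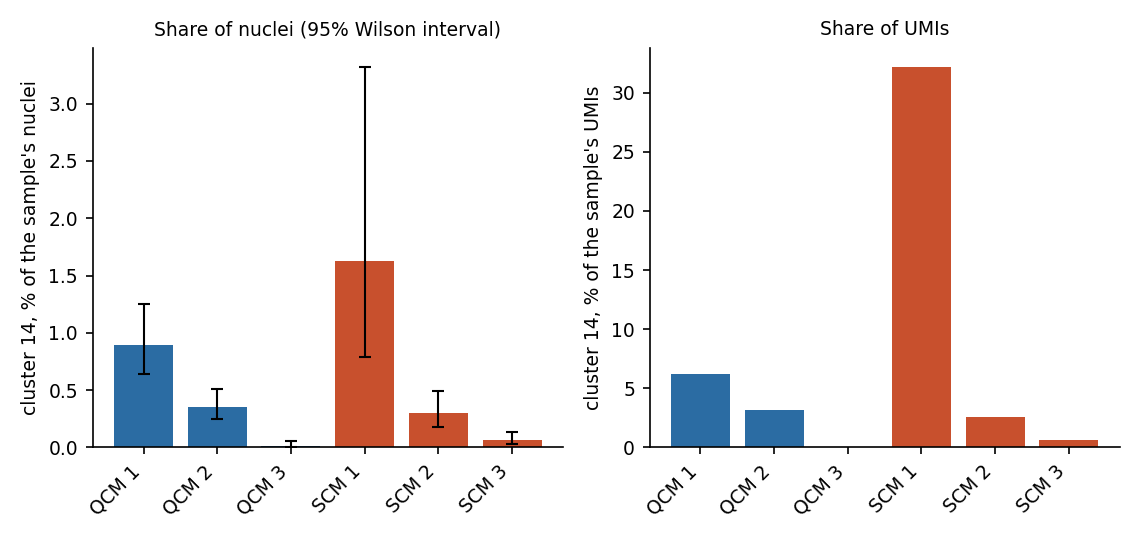
Cluster 14 as a percentage of each sample's nuclei (left, with 95% Wilson intervals) and of its UMIs (right), for QCM (blue) and SCM (red) replicates. SCM replicate 1 is the highest in both panels, at 1.63% of nuclei and 32.2% of UMIs, and QCM replicate 3 the lowest.

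Neither share separated the media. The percentage of nuclei averaged 0.420 ± 0.447 in QCM and 0.664 ± 0.843 in SCM (SD, n = 3 each, two-sided exact permutation test, p = 0.7). In the edgeR quasi-likelihood test over the 15 clusters the log2 difference was 0.11 with a standard error of 1.76 (adjusted p = 0.982), and none of the clusters was called (0%). The share of UMIs averaged 3.14% ± 3.10 in QCM and 11.8% ± 17.7 in SCM (n = 3 each, exact permutation test, p = 0.7), where the smallest p that 3 against 3 samples allow is 0.1. Both directions rested on SCM replicate 1. Without it the difference in the share of UMIs was -1.54 percentage points and the log2 difference in the share of nuclei was -1.21. Without QCM replicate 3 the latter was -0.68. The log2 depth ratio was 3.45 ± 0.16 in 2 QCM samples and 4.13 ± 1.29 in 3 SCM samples (exact permutation test, p = 0.8, smallest possible 0.2), and its difference of 0.68 became -0.056 without SCM replicate 1.

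Few genes were much higher in cluster 14 than in the other nuclei. Of 12543 genes at 5 CPM or more in the cluster or in the other nuclei, 65 (0.518%) were at least 2-fold higher in cluster 14 and 463 (3.69%) at least 2-fold lower, on mean CPM over 5 samples with 1 added. Made the same way, the number at least 2-fold higher was 70 for cluster 0 and 18 for cluster 2. Of 10607 genes at 20 CPM or more in any cluster, 1416 had their highest mean in cluster 14 and 957 their lowest, among 15 clusters. The same count was not made for the other clusters, so it cannot be read as particular to cluster 14. The median gene was 0.15 higher on this log2 scale. Among 8076 genes at 20 CPM or more and present in 25% of its nuclei or more, 9 were 2-fold higher and 0 were 3-fold higher. The highest ratio with 1 CPM added was 2.56, in the range of clusters 0 and 2 (2.28 and 3.37), where the leading genes of cluster 9 and cluster 13 reached 140 and 344. Across 10233 genes its profile was also most like these 2 clusters, with a Pearson r of 0.978 with cluster 2 and 0.967 with cluster 0, and 116 and 200 genes more than 2-fold apart. These correlations are across genes, which are not independent replicates, and all clusters share the same 5 libraries. On the deposited map of the nuclei 41.3% of the nearest 10 neighbours outside the cluster belonged to cluster 2 and 39.9% to cluster 0.

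The leading genes were few in UMIs and uneven between samples. Cyp2c38, a cytochrome P450 enzyme gene (chromosome 19), came first at 35.3 ± 38.7 CPM against 13.2 ± 2.34 (SD, n = 5). Its cluster 14 values were 25.1 and 23.2 CPM in QCM replicates 1 and 2 and 6.11, 18.8 and 103 CPM in SCM replicates 1 to 3, where the 103 stood for 18 UMIs. Myo3a, an actin motor gene, was higher in 5 of 5 samples, at 11.4, 19.4, 13.0, 43.3 and 34.5 CPM against 4.55, 9.57, 11.6, 12.2 and 13.6 in the other nuclei. Nrg4, a ligand of the ErbB receptors, averaged 24.2 ± 22.5 CPM against 11.6 ± 2.66, and Slc9a3, the brush border sodium/proton exchanger, 27.3 ± 30.5 against 14.1 ± 7.10. Gm35533 entered through 1 library. It stood at 158 CPM in SCM replicate 1 and at no more than 8.23 CPM in the others. Gm28588, a predicted gene on the Y chromosome, was at 0 in replicate 1 of both media, in cluster 14 and in the other nuclei alike, and at 38.7, 30.1 and 132 CPM in QCM replicate 2 and SCM replicates 2 and 3, where the last value rested on 23 UMIs. Yap1, the transcriptional co-activator of the Hippo pathway, was not a leading gene but belongs to the study's panel, and was higher in 5 of 5 samples, at 170 ± 19.6 CPM against 127 ± 27.4. Not all leading genes peaked in cluster 14. Among the 15 clusters it ranked 1 for Myo3a and Nrg4, 2 for Cyp2c38 and Gm35533 and 3 for Slc9a3 and Gm28588. The highest cluster means of the last 4 were 60.3, 85.9, 131 and 233 CPM. A higher mean in cluster 14 than in the other nuclei was the common direction, as only 34.7% of the 12543 genes compared had the lower one.

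The genes lowest in cluster 14 were hormone and granule genes, lipid transport genes, small nucleolar RNAs and a set led by Xlr5a, Grik1 and Lrp1b. Each of the 10 was lower in 5 of 5 samples. They were picked by their ratio in these same samples, so this gives no separate support. Several enteroendocrine hormone and granule genes were low in every sample. Gcg, the proglucagon gene, stood at 10.2 and 7.75 CPM in QCM replicates 1 and 2 and 8.39, 3.76 and 5.74 CPM in SCM, against 54.8, 58.2, 72.1, 33.9 and 46.6 CPM in the other nuclei. Chgb, which encodes a granule protein, stood at 16.5, 18.1, 6.11, 5.64 and 0 CPM against 128, 74.4, 15.9, 46.6 and 73.8 CPM. Gip, a hormone of K cells, had 17 UMIs in the whole cluster, a mean of 2.88 ± 2.59 CPM against 42.5 ± 21.9. Scg3, a granule gene of the same list, did not share this, at 4.37 ± 2.79 CPM against 3.94 ± 0.857 and higher in cluster 14 in 3 of 5 samples, and Ptprn2, a granule membrane protein gene, was at 32.0 ± 9.78 CPM against 118 ± 37.7 in all other nuclei but 20.1 and 19.2 in clusters 0 and 2. In none of the 5 samples did cluster 14 reach the level of the other nuclei for Gcg, Chgb or Gip. Apoa1 and Apoa4, apolipoproteins of enterocytes, averaged 28.0 ± 36.9 and 40.8 ± 53.6 CPM against 134 ± 202 and 180 ± 314, with the highest values of both in QCM replicate 1. Snord118, a small nucleolar RNA, averaged 17.3 ± 18.4 CPM against 74.3 ± 81.7. Xlr5a, Grik1 and Lrp1b varied widely between libraries. Grik1, a glutamate receptor gene, stood at 995 CPM in the other nuclei of SCM replicate 1 and 87.0 CPM in its cluster 14 nuclei, and Lrp1b at 730 against 73.3 CPM. In QCM replicate 1 these genes were at 137 and 107 CPM in the other nuclei and 22.7 and 19.2 CPM in cluster 14. In QCM replicate 2 they were at 9.32 and 6.13 CPM in the other nuclei and 5.17 and 2.58 CPM in cluster 14. Of the UMIs of these genes in SCM replicate 1, cluster 4 held 49.0% for Grik1 and 49.6% for Lrp1b.

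By the marker lists the cluster had stem and mitotic genes at about the level of the other nuclei or above it, and goblet, Paneth and enteroendocrine genes below it. The stem list, 12 genes with Lgr5 and Smoc2, summed to 4187 ± 833 CPM in cluster 14 and 3575 ± 934 in the other nuclei (SD, n = 5), and was the higher of the 2 in 4 of 5 samples. Of its 9 members at 5 CPM or more, 6 had the higher mean in cluster 14 and 3 the lower, and clusters 0 and 2 as a whole had more of the list, at 4436 and 4393 CPM. Lgr5 itself, the Wnt-regulated stem cell receptor, stood at 383 and 687 CPM in QCM replicates 1 and 2 and 439, 1102 and 528 CPM in SCM, against 172, 593, 580, 804 and 441 in the other nuclei. Only SCM replicate 1 was lower in cluster 14. Olfm4, the other stem gene of the study's panel, was lower in 5 of 5 samples, at 37.7 ± 8.72 CPM against 51.4 ± 13.8. The list of 14 mitotic genes was 1563 ± 174 CPM against 1394 ± 157 and higher in 5 of 5 samples, with Knl1, a kinetochore scaffold, at 250 ± 60.1 against 179 ± 44.9. Its members were divided. Of the 14, 10 had the higher mean in cluster 14 and 4 the lower, namely Ube2c, a ubiquitin-conjugating enzyme of mitotic exit, at 62.2 against 98.5 CPM, Birc5 at 57.6 against 77.6, the cyclin gene Ccnb1 at 28.3 against 39.2 and its kinase partner Cdk1 at 61.6 against 75.0. The DNA replication list, of which 9 genes were measured, was 814 ± 107 CPM against 746 ± 108. Clusters 0 and 2 as a whole stood at 1613 and 1501 CPM of the mitotic list and at 844 and 853 CPM of the replication list. Over all 12543 genes compared, 34.7% had the lower mean in cluster 14. The 3 of 9 stem and 4 of 14 mitotic members that were lower are near that share.

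The enteroendocrine, goblet and Paneth lists were lower in each of the 5 samples, while the enterocyte and tuft lists were lower in some and the M cell list was higher in most. The enteroendocrine list of 18 genes was at 60.0, 60.7, 22.1, 28.2 and 11.5 CPM in the 5 samples, against 343, 274, 118, 153 and 305 CPM in the other nuclei. It was the one list for which every sample was more than 4-fold lower, with ratios from 0.0376 to 0.222. The goblet list was 418 ± 111 CPM against 1015 ± 641 and the Paneth list 415 ± 279 against 1089 ± 1043. Both were lower in 5 of 5 samples, but by little in SCM replicate 1, where the ratios were 0.967 and 0.979. Defa24, an antimicrobial alpha-defensin of Paneth cells, was at 234, 24.5, 152, 43.3 and 57.4 CPM against 1286, 158, 209, 132 and 84.5. Reads of Defa24 may be split with its near-identical relatives. Tff3, a trefoil peptide of goblet cells, was at 86.7 ± 39.8 CPM against 276 ± 263. The enterocyte list was lower in 4 of 5 samples, at 2075 ± 1106 CPM against 2662 ± 1713. The exception was SCM replicate 3, at 3927 against 2454 CPM, where Sis, the brush border sucrase-isomaltase, held 296 of the 684 UMIs of the list, and where 1 nucleus of 66374 UMIs had 7262 CPM of the list. Tuft genes were at 10.4 ± 8.89 CPM against 18.9 ± 4.74, with 67 UMIs in all, and were lower in 3 of 5 samples and higher in QCM replicate 2 and SCM replicate 1. Of the M cell list, 4 genes were measured and stood at 107 ± 34.8 CPM against 82.5 ± 23.4, nearly all of it Tnfrsf11a, and were lower in 1 of 5 samples. The fetal-like list was lower in 4 of 5 samples and is taken up below.

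**Figure D3:**
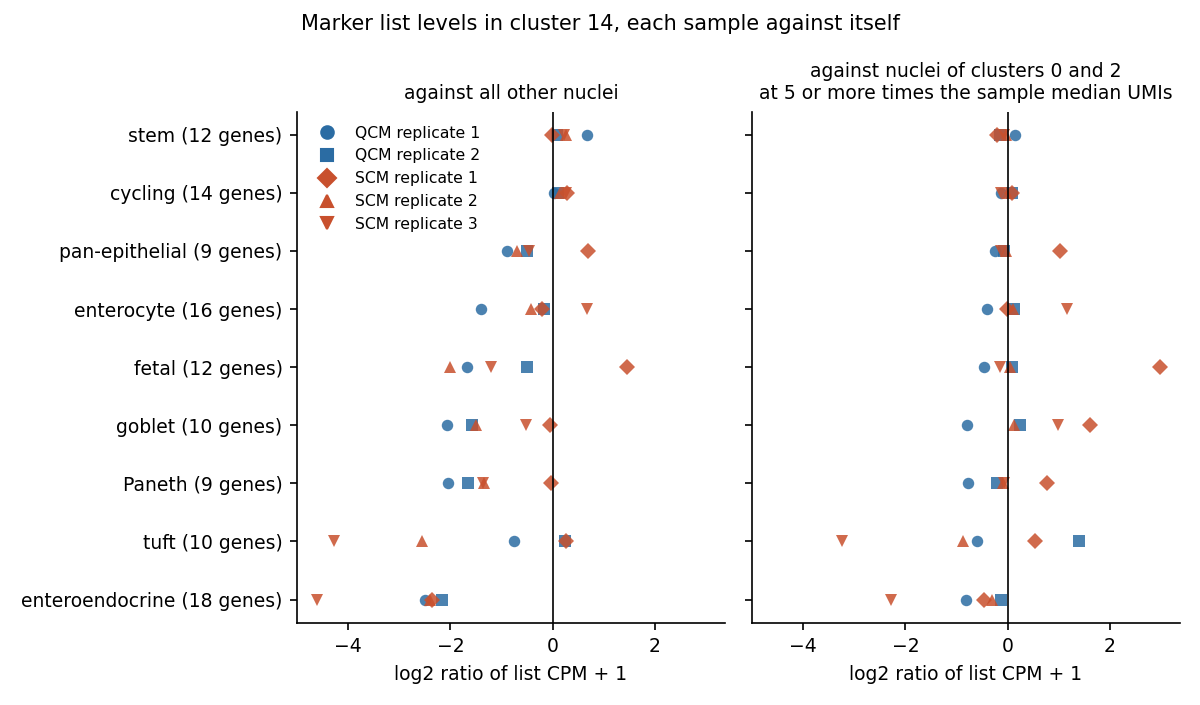
Log2 ratio of the summed CPM of 9 marker lists, with 1 CPM added, cluster 14 over all other nuclei of the same sample (left) and over nuclei of clusters 0 and 2 at 5 or more times the sample's median UMIs (right), 1 symbol per sample. On the left the enteroendocrine symbols lie at or below -2 for all 5 samples, and on the right most symbols move towards 0, with the fetal-like list of SCM replicate 1 as the farthest to the right.

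Against deep nuclei of the 2 most similar clusters, a comparison added after seeing the data, most of these differences shrank. Clusters 0 and 2 held 220 nuclei at 5 or more times their sample's median, with a median of 16722 UMIs. Their stem list averaged 4401 ± 950 CPM, their goblet list 362 ± 293 and their Paneth list 469 ± 435, close to the cluster 14 values of 4187, 418 and 415. Ribosomal protein genes, 82 in number, took 32730 ± 12488 CPM in cluster 14 and 33262 ± 20979 in these nuclei, where all other nuclei had 72542 ± 51803. These means covered differences between samples. For the goblet list, SCM replicate 3 had 471 CPM in cluster 14 against 237, and QCM replicate 1 went the other way at 511 against 882. SCM replicate 1 had the highest ratios for several lists. Its cluster 14 nuclei had 513 CPM of the goblet list, 3590 of the pan-epithelial list and 46031 of ribosomal protein genes, against 168, 1759 and 20718 in its deep nuclei of clusters 0 and 2, and 905 against 113 CPM of the fetal-like list. The enteroendocrine list was 59.5 ± 30.0 CPM in the deep nuclei and 36.5 ± 22.6 in cluster 14, and 142 ± 79.7 and 134 ± 61.9 in clusters 0 and 2 as a whole. Other nuclei of any cluster at or above the lower quartile of cluster 14 in UMIs were present in 4 samples, all but SCM replicate 1 of the 5. Against them the log2 ratios of the goblet, Paneth and enteroendocrine lists were -1.07, -1.0 and -2.72. Against all other nuclei of the same 4 samples they were -1.42, -1.60 and -2.92, and over 5 samples -1.14, -1.28 and -2.81. These deep nuclei of any cluster had 315 ± 259 CPM of the enteroendocrine list over 4 samples, and all other nuclei 239 ± 98.1 over 5. The samples went both ways. The deep nuclei were lower in QCM replicate 1 (136 against 343 CPM) and SCM replicate 2 (69.3 against 153). They were higher in QCM replicate 2 (433 against 274) and SCM replicate 3 (623 against 305). The choice of deep nuclei thus set how far the contrast shrank, and the part of depth in it was not tested.

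Markers of several lineages met in the same nucleus far more often in cluster 14 when all UMIs were used. At equal depth only the mean number of lists per nucleus was taken, and it was lower there. How often lists met in 1 nucleus at equal depth was not counted. The 6 lists used here were those for enterocyte, goblet, Paneth, enteroendocrine, tuft and fetal-like genes. With all UMIs, 24 of the 92 nuclei (26.1%) had a UMI of every list, against 679 of 38062 other nuclei (1.78%), and the mean number of lists per nucleus was 4.84 ± 0.87 against 3.76 ± 0.71 (SD over 5 samples). The median depths behind these shares were 39432.5 and 2135 UMIs. When all nuclei were thinned to 1000 UMIs the order of the mean number of lists turned. Cluster 14 nuclei then showed 1.61 ± 0.27 lists and the other nuclei 2.44 ± 0.56. The sample values were 1.92, 1.42, 1.87, 1.45 and 1.36 in cluster 14 and 3.42, 2.25, 2.06, 2.28 and 2.18 in the others, so each sample gave the lower value in cluster 14. Clusters 0 and 2 were also below the other nuclei as a whole, at 2.16 ± 0.60 and 2.09 ± 0.62 lists, and in SCM replicate 1 they were below cluster 14, at 1.42 and 1.32 against 1.87.

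**Figure D4:**
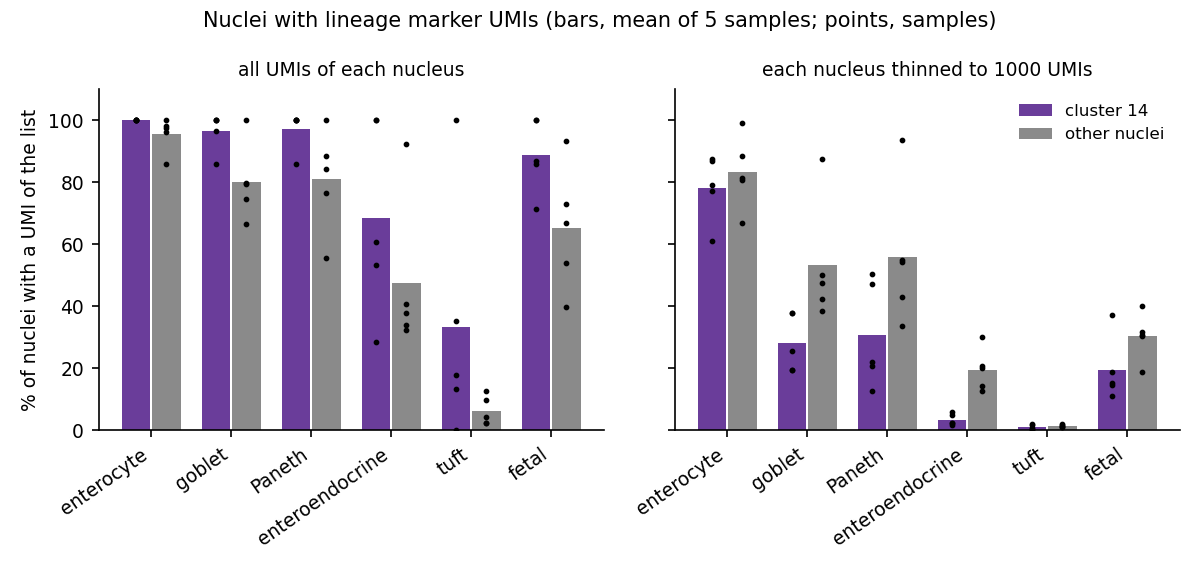
Percentage of nuclei with at least 1 UMI of each of 6 lineage lists, in cluster 14 (purple) and all other nuclei (grey), with all UMIs (left) and after thinning each nucleus to 1000 UMIs (right), bars showing the mean of 5 samples and points the samples. Every purple bar is above its grey one on the left and below it on the right.

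Single lists showed the same turn. A UMI of an enteroendocrine gene was present in 75.0% of cluster 14 nuclei and 47.4% of the other nuclei, and after thinning in 4.71% and 24.3%. With all UMIs, the cluster 14 shares in this paragraph are over its 92 nuclei pooled, unlike the means over 5 samples. QCM replicate 1 gave 34 of these 92 nuclei but 3791 of all 38154, so the mix of samples differs between the 2 sides. For Defa24 the shares were 69.6% and 33.9% before thinning and 10.4% and 20.1% after it. For Fabp1, a fatty acid binding protein of enterocytes, they were 80.4% and 63.7%, then 16.3% and 43.0%. The stem gene Lgr5 did not turn, at 98.9% and 47.8% with all UMIs and 43.6% and 29.4% at 1000 UMIs. The immune list, of a cell type that these cultures should lack, was found in 25.0% of cluster 14 nuclei with all UMIs and in 0.670% after thinning. In the other nuclei it was found in 1.66% and 0.526%. The tuft list was at 1.05% in thinned cluster 14 nuclei. The lists differ in their genes, and a background level for the tuft list was not measured.

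Counted per nucleus against all other nuclei, the enteroendocrine, Paneth and goblet lists were each multiplied by less than the UMIs of all genes in 5 of 5 samples. The enterocyte list was so in 4 of 5. A list's factor divided by that of all genes is its CPM ratio. These counts therefore restate the list results above and give no separate support. Cluster 14 nuclei held 7.32, 9.29, 28.7, 8.77 and 10.1 times as many UMIs of all genes as the mean other nucleus of the 5 samples. For the stem list the factor was 11.8, 9.91, 28.5, 10.6 and 11.8. For the enteroendocrine list it was 1.28, 2.06, 5.38, 1.62 and 0.380, which corresponds to 4.50, 1.68, 4.14, 1.00 and 0.286 UMIs per cluster 14 nucleus. The Paneth factor was 1.78, 2.93, 28.1, 3.46 and 3.94, and the goblet factor 1.75, 3.10, 27.7, 3.08 and 7.07. The tuft factor, on 3.86 UMIs per nucleus or fewer, was 4.14, 11.1, 34.7, 1.22 and 0, above that of all genes in QCM replicate 2 and SCM replicate 1. The Paneth and goblet factors nearly matched that of all genes in SCM replicate 1. Against the mean nucleus of clusters 0 and 2, the factor of all genes was 6.22, 9.24, 14.8, 10.0 and 10.5. The goblet factor was then 2.31, 4.95, 42.4, 6.43 and 11.1, above that of all genes in SCM replicates 1 and 3. The Paneth factor was 2.24, 3.39, 22.4, 5.23 and 5.40, above it in SCM replicate 1. The enteroendocrine factor was 1.83, 3.31, 6.88, 2.72 and 0.641, below it in each sample.

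The kind of transcript differed too. Ribosomal protein genes took 4.40% of cluster 14 UMIs in QCM replicate 1 against 15.9% in its other nuclei, and 2.17% against 5.42%, 1.87% against 2.79% and 3.32% against 7.82% in QCM replicate 2 and SCM replicates 2 and 3. SCM replicate 1 went the other way, at 4.60% against 4.32%. The deposited mitochondrial fraction had the same exception, with a median of 1.01% against 0.802% in SCM replicate 1 and 0.667%, 0.532%, 0.626% and 0.336% against 1.01%, 1.83%, 2.21% and 3.54% in the other 4. The level also moved with gene span. Protein-coding genes were put into 5 equal groups by span. The group of the shortest (median 5.92 kb) had a median log2 ratio of -0.36 in cluster 14 against other nuclei, and the group of the longest (median 130 kb) one of 0.30. In QCM replicate 1 these medians were -0.80 and 0.91, and in SCM replicate 1 they were 0.18 and -0.01. Against clusters 0 and 2 they shrank to -0.23 and -0.22 for the shortest and to 0.19 and 0.17 for the longest. Malat1, a long RNA retained in the nucleus, was at 23570 ± 1565 CPM in cluster 14 and 20158 ± 5023 in the other nuclei.

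The 7 nuclei of SCM replicate 1 were not alike. Those with 278027 and 272203 UMIs had 2201 and 1492 CPM of the fetal-like list, and the other 5 had between 50.2 and 413 CPM. The first held 235 UMIs of Clu, a secreted chaperone that marks injury-responsive epithelium, 67 of Anxa1, 116 of Krt7 and 188 of the 207 Gm35533 UMIs of these nuclei. The second held 26, 40, 84 and 3 of the same genes. Both also had the highest pan-epithelial levels of the 7, at 6456 and 4765 CPM, with 593 and 491 UMIs of the simple-epithelium keratin Krt8. The nucleus with the most UMIs, 289467, had 9 UMIs of Clu and a fetal-like level of 221 CPM, and its stem list stood at 4743 CPM. In this sample the fetal-like list was therefore higher in cluster 14 than in the other nuclei, at 905 against 331 CPM, where the remaining samples gave 115 against 369, 169 against 240, 267 against 1072 and 201 against 466 CPM.

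Between media, cluster 14 could be compared over 2 QCM and 3 SCM samples. The fetal-like list was at 115 and 169 CPM in QCM and 905, 267 and 201 CPM in SCM, and the enteroendocrine list at 60.0 and 60.7 against 22.1, 28.2 and 11.5. The groups did not overlap for these 2 of 7 lists compared, which gave an exact permutation p of 0.2 for each, the smallest that 2 against 3 samples allow (adjusted p = 0.7 over 7 lists). For single genes, all SCM samples were above all QCM samples for 5.58% of 10070 genes and below them for 5.79%. No gene passed an adjusted p of 0.05 in the edgeR quasi-likelihood test (0%), with 127 at an unadjusted p under 0.05, and DESeq2 called 0 with 56. Without a filter on low counts edgeR called 49 genes, and with the replicate number as a block 171, on 1 residual degree of freedom. Clu was at 5.10 and 6.46 CPM in QCM and 222, 32.0 and 11.5 CPM in SCM, a log2 difference of 4.22 with a standard error of 1.00 (edgeR adjusted p = 1.00). Anxa1, an annexin, had 2 UMIs in each QCM sample and 115, 8 and 0 UMIs in SCM, so its groups overlapped. Of the fetal-like list 5 genes were tested and none was called. Fewer nuclei of a type and less RNA per nucleus cannot be told apart in such sums.

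The weight of cluster 14 also reached sums over whole samples, by which the media can be compared. Leaving the 92 nuclei out moved the log2(CPM + 1) value of 76 of 10228 genes by more than 0.5 in SCM replicate 1 and of 0 genes in each of the other 5 samples. The largest shifts in SCM replicate 1 were those of Gm35533 at 2.11, of the lipase gene Pnliprp2 at 2.07 and of the meprin gene Mep1b at 1.49. Clu stood at 117 CPM in SCM replicate 1 with cluster 14 and at 66.6 without it, and its difference between SCM and QCM over 3 samples each was 2.39 and 2.11 on this scale. For Krt8 the difference was 0.08 with the cluster and -0.10 without it. Of the 10228 genes, 308 changed the sign of their difference.

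The number of genes called between the media changed without these nuclei in 1 of 2 tools. With edgeR no gene was called in sums over all nuclei (0% of 19046 genes, 866 at an unadjusted p under 0.05) or over all nuclei but cluster 14 (0% of 18739, 823). DESeq2 called 20 genes over all nuclei (0.105%) and 4 without cluster 14 (0.0213%), and the 4 were among the 20. At an unadjusted p under 0.05 DESeq2 had 1225 genes with the cluster and 1225 without it, of which 1097 were shared. Its own filter on mean counts left an adjusted p out for 1491 and 18 genes, and without that filter it called 19 and 4. Of the 20 genes, 15 had at least 50% of their SCM replicate 1 UMIs in the 7 cluster 14 nuclei of that sample, as had 9.34% of the 18646 tested genes with a UMI there. Among genes with 20 UMIs or more in that library the numbers were 14 of 18 called genes and 2.27% of 12502 tested. Tnfrsf11b, the decoy receptor osteoprotegerin, had 76.3% of them there, and its log2 difference was 2.17 with a standard error of 0.40 (DESeq2 adjusted p = 0.000318) with the cluster and 1.86 with 0.52 (adjusted p = 0.369) without. Thbs1, the matrix protein thrombospondin 1, went from 2.47 to 2.37 (DESeq2 adjusted p = 0.0121 and 0.224), Ano1, a calcium-activated chloride channel, from 2.33 to 2.22 (0.00140 and 0.0986) and Myof, a membrane repair protein, from 2.07 to 1.89 (0.0137 and 0.429). The 4 genes called both ways were Mgam2-ps, Samd5, Maml2, a Notch co-activator, and Arhgap6, named here because they were so few. Mgam2-ps is a pseudogene that may share reads with its neighbour Mgam. The directions of all 20 genes were the same with and without the cluster, and the only one lower in SCM was Rbp7, a retinoid binding protein, with no UMI in the 7 nuclei.

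**Figure D5:**
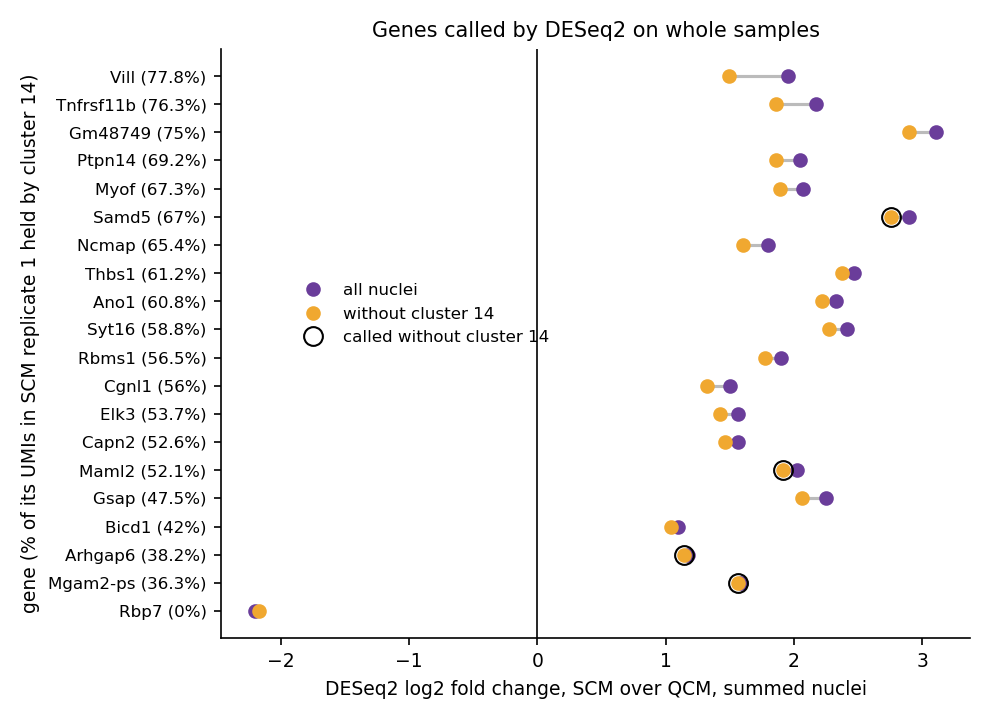
DESeq2 log2 fold change between SCM and QCM sums for the 20 genes called over all nuclei (purple), and for the same genes without cluster 14 (orange), sorted by the percentage of the gene's UMIs in SCM replicate 1 that cluster 14 holds. Black rings mark the 4 genes called without the cluster, and Vill, with 77.8% of its UMIs in these nuclei, shows the largest change.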

How the data were processed

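The authors isolated nuclei from frozen organoids, made 10x Genomics 3′ v3.1 libraries and counted UMIs per gene with Cell Ranger (version 2.1.1 per the submitters' processing notes) on mm10. They discarded nuclei outlying for a high mitochondrial share or for few reads or genes, with no upper limit on depth stated, regressed out mitochondrial and total counts, integrated the samples with Harmony and clustered with Leiden. The deposited counts are raw UMIs per gene and nucleus, and the deposited table gives each nucleus its cluster, counts, genes and mitochondrial fraction. The methods text and the table differ in how many clusters they give, and the table was followed. No doublet caller was run here, and none is stated in the sources used here. Integrated or log values were not used.

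Nuclei were summed per sample, with cluster 14 and without it. CPM are UMIs scaled to a total of 1000000. Symbols matched 31244 of 31319 gene identifiers, and gene spans come from GENCODE M21 on GRCm38. A list's CPM is the sum over its measured members. Thinning gives the expected share of nuclei with a UMI among 1000 drawn without replacement. Counts were tested in R 4.3.3 with edgeR (quasi-likelihood, TMM, filterByExpr with a minimum count of 10, Benjamini-Hochberg 0.05), with DESeq2 and limma as alternatives, and sample values with two-sided exact permutation tests. The edgeR step was tested on simulated data. A test within cluster 14 had been set for samples with 10 nuclei or more, which left 2 QCM samples and 1 SCM sample, so samples with 5 or more were used. Named genes are the 15 highest and 10 lowest by CPM ratio (at least 20 CPM in cluster 14 and a UMI in 25% of its nuclei, or at least 50 CPM in the other nuclei), the 4 most abundant of each list, the study's panel and nuclear RNAs. Beyond this rule, genes are named for their weight in SCM replicate 1 or for a DESeq2 call, a choice made from the values. The nuclei, lists and tests were chosen with earlier results of these data known. Some cell cycle, M cell, fibroblast and red cell genes are not analysed here.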

Additional observations from a re-analysis of the deposited data

How the results depend on the processing

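Leaving out SCM replicate 1 turned the direction of the 3 differences between media, in the shares of UMIs and nuclei and in the depth ratio, and of none of the contrasts with other nuclei; its 7 deep nuclei limit what the shares can show. With each sample left out in turn, the share of UMIs differed by -1.54 to 14.2 percentage points, the log2 share of nuclei by -1.21 to 1.32, and the log2 depth ratio between media by -0.056 to 1.16; in no case was a difference called, and the gene counts stayed at 0. In alternatives added after seeing the data, genes called within cluster 14 were 49 without a filter on low counts and 171 with the replicate number as a block, which leaves a single residual degree of freedom. Over all nuclei but cluster 14 the block gave 0 genes. Equal numbers were not taken as pairs, since the deviations of replicates 1, 2 and 3 correlated at 0.31, 0.42 and -0.09, although the first 2 correlated best with their own number, and the labels do not say whether equal numbers share an animal. With the block the log2 share of nuclei was 0.64 in place of 0.11 and not called. By paired sign flips the share of UMIs differed by 8.66 points and the depth ratio by 1.16 in place of 0.68, but 3 and 2 pairs allow no p below 0.25 and 0.5. DESeq2 gave 4 genes without cluster 14 and 20 with it, and 4 and 19 without its own filter, all chosen after seeing the data except the first. Against other nuclei at or above the cluster's lower quartile of UMIs, of which SCM replicate 1 had none, the log2 depth ratio was 0.052 by construction. The log2 list ratios were 0.44 for cycling, -2.94 for fetal-like and -1.01 for pan-epithelial genes. Goblet at -1.07, Paneth at -1.0, enteroendocrine at -2.72 and tuft at -2.74 were within the spread of the values against all other nuclei over 5 samples. Without SCM replicate 1 those values were -1.42 ± 0.65, -1.60 ± 0.33, -2.92 ± 1.14 and -1.84 ± 1.99 (SD), and Paneth was outside that spread. Against deep nuclei of clusters 0 and 2, a comparison added after seeing the data, the log2 list ratios were -0.065 for stem, -0.017 for cycling, 0.19 for enterocyte, 0.44 for goblet, -0.074 for Paneth, -0.80 for enteroendocrine, 0.50 for fetal-like and 0.11 for pan-epithelial genes. Without thinning, the difference in lineage lists per nucleus was 1.09 in place of -0.83. The causes were not tested. Of all alternatives, 11 turned a direction, 12 moved a count by over 1.5 times or a value by over 1 SD between samples, and 105 did neither, although tested differences could still vary in size within the ranges above.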

Other observations

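Deep nuclei outside cluster 14 lay in different groups in different samples. In SCM replicate 2, cluster 7, the group with the highest fetal-like list of the 15, at 2059 CPM, held 42 of the 88 nuclei at 10 or more times the sample's median UMIs, and cluster 14 held 12. In SCM replicate 3 the numbers were 14 and 3 of 42, but in SCM replicate 1 they were 1 and 7 of 19. In QCM replicates 1 to 3 cluster 7 held 3, 2 and 4 such nuclei and cluster 14 held 18, 17 and 0, of 22, 38 and 17. Cluster 7 had 1442 nuclei in all and cluster 14 had 92, so these counts do not rank the 2 groups by depth. They are counts within samples and were not tested between media.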
